A study of Homo sapiens with 6 samples.

Results

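This account covers 9 genes of the complement system, of 19514 gene names in the deposited table: C1R, C1S, C3, CFI, SERPING1, CLU, CD46, CD55 and CD59. They were taken by name, with rows sharing a name summed, and the set was chosen with earlier results of these data known. ARPE-19 is an established human cell line with a retinal pigment epithelial origin, and its genotype is labelled WT. One group received tt-DDE, or trans,trans-2,4-decadienal, a reactive unsaturated aldehyde formed in lipid oxidation, at 40 µM over 24 h. The other received the DMSO vehicle alone over the same time. Each group held 3 libraries of polyadenylated RNA. Total counts were 15548067 to 17130543 in the tt-DDE libraries and 14156421 to 16061373 in the DMSO libraries. Nothing in the labels says that libraries of a group came from separate cultures, so the p-values measure the spread between these libraries, which may be technical. In bulk RNA, fewer cells that express a gene and less RNA per cell cannot be told apart.

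Complement is a cascade of plasma proteases that tags surfaces with fragments of C3 and ends in a pore, the membrane attack complex. Cells protect themselves with membrane proteins that break the cascade at different steps, and with soluble inhibitors that they or the liver secrete. The retinal pigment epithelium both makes complement proteins and is exposed to them, and inherited variation in complement genes is a well known risk for age-related macular degeneration.

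After tt-DDE the complement genes moved in both directions. CLU, the soluble inhibitor clusterin, rose 12.9-fold, CD55 rose 1.90-fold and C1S rose 1.44-fold. CD59 fell to 269 CPM with tt-DDE, against 1190 CPM with DMSO, and C3, CD46 and CFI also fell. CPM is a count scaled to a common library size, here after correction for library composition by the TMM method. SERPING1 did not pass the threshold, an adjusted p of 0.05 over all genes, and C1R had too few counts to test.

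Of the 9 genes, 8 passed the filter on low counts, each in both groups, and 7 of these 8 were called by the quasi-likelihood test of edgeR, with Benjamini-Hochberg adjusted p-values. The background was 83.3% of 12531 genes tested, so this share is near what all genes showed. There were 3 higher, where 41.7% of all genes tested were called higher, and 4 lower, where 41.6% were called lower. A change of at least 2-fold was reached by 1 gene that rose, CLU, against a background of 16.1%, and by 1 that fell, CD59, against 16.8%. The CPM of the 2 groups did not overlap for 6 of the 8, as in 83.9% of all genes. The median log2 fold change was -0.47 over the 8 genes, and 0.00134 over all genes tested. Without sign, the median was 0.85 for these genes and 0.67 for all. The centre of the changes and the even split of calls depend on the TMM scaling. With library size alone, the median log2 fold change was -0.56 over the 8 genes and -0.09 over all. In that setting 4737 genes were higher and 5689 lower.

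**Figure D1:**
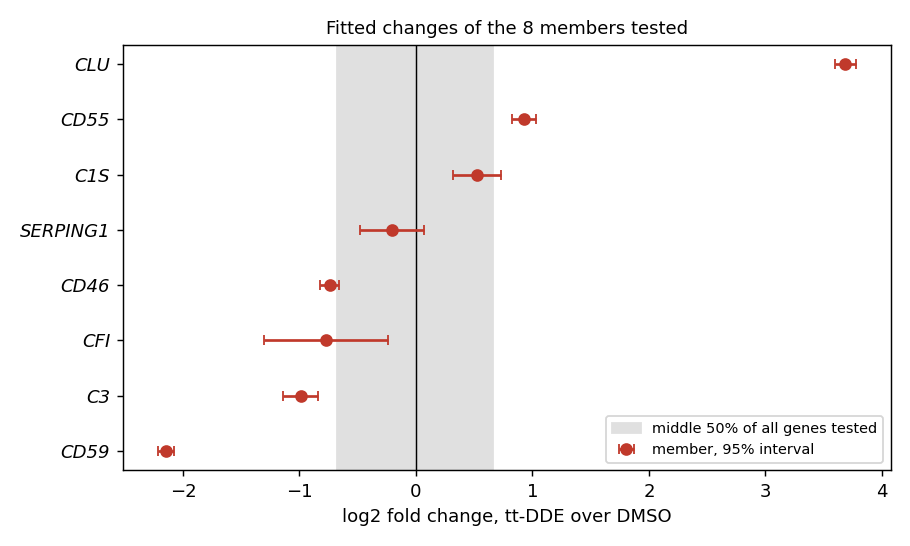
Fitted log2 fold change of tt-DDE over DMSO (x axis) for each complement gene tested (y axis), with 95% intervals from the fit of 3 libraries per group. The grey band spans the middle of all genes tested, from -0.68 to 0.66; CLU at 3.69 and CD59 at -2.15 lie far outside it, and the interval of SERPING1 includes 0.

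The membrane regulators CD46, CD55 and CD59 restrain the cascade in different ways and are taken first, since their RNAs diverged. CD46, or membrane cofactor protein, helps factor I to cut C3b and C4b. CD55, or decay-accelerating factor, takes apart the convertases that cleave C3 and C5. CD59, a small protein on a lipid anchor, blocks assembly of the membrane attack complex. In the table CD46 lay at chr1:207752038-207795516 on the plus strand and CD55 at chr1:207321674-207360966 on the same strand, 391 kb apart, with CD59 at chr11:33703010-33736479 on the minus strand (GRCh38.p13). RefSeq promoter windows (GRCh38.p14) run from 250 bases before the annotated start to 50 bases from it, and those 50 bases are in capitals. They are shown because these neighbours in function, and for CD46 and CD55 in position, moved in different directions. The windows are chr1:207751788-207752087 for CD46 (plus strand), chr1:207321428-207321727 for CD55 (plus strand) and chr11:33736430-33736729 for CD59 (minus strand).
CD46: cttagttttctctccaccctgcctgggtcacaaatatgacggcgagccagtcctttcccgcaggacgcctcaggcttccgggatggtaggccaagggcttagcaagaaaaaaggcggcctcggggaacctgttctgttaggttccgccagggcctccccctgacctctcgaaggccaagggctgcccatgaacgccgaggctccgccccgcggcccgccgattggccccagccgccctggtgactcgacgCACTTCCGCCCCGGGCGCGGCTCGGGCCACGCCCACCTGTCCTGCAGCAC
CD55: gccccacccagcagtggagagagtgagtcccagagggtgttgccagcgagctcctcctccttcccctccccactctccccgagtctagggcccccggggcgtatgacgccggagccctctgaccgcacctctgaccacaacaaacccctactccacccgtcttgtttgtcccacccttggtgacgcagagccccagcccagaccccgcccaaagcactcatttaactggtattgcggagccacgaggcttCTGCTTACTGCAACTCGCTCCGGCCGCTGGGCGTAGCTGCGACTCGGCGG
CD59: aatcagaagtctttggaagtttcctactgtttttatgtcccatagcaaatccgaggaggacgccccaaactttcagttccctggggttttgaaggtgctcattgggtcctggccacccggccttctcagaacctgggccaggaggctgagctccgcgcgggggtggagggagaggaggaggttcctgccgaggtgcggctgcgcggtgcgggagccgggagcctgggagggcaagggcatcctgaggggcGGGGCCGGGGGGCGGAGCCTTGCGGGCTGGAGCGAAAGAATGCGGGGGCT

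Bases G and C made up 67.0% of the window of CD46, 65.0% of that of CD55 and 64.3% of that of CD59, where the median of 35116 windows was 58.7%. The CG dinucleotide occurred 25, 19 and 18 times in that order, against a median of 14. Windows were listed for 5 of the 9 genes, 10 windows in all, and those of C1S, C3, CLU and SERPING1 were not used here. Short motifs were searched on both strands of these 10 windows. The heat shock motif GAANNTTC was in the CD59 window shown, starting 235 bases before the start site, and in the CFI window, where 6.77% of all windows hold it. The AP-1 motif TGANTCA was found 3 times in another of the 4 CD59 windows, that at chr11:33722678-33722977, and 7.71% of all windows hold it. The NF-kB motif, GGGA and CC with 4 free bases between them, was in both C1R windows, and 25.6% of all windows hold it. None of the 10 windows held the antioxidant response motif TGACNNNGC (13.3% of all windows), the cyclic AMP response motif TGACGTCA (1.85%), the amino acid response motif TGATGNAA (3.62%) or the interferon response motif, GAAA and GAAA with 2 free bases between them (3.57%). AP-1 and antioxidant response motifs can share bases. A match is a description of the letters in these windows. Counts per gene do not tell which of several start sites was used.

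CD59 had 268, 270 and 269 CPM in the tt-DDE libraries, against 1212, 1197 and 1161 CPM in the DMSO libraries. Every tt-DDE library was far below every DMSO library. The means were 269 ± 0.735 CPM with tt-DDE and 1190 ± 26.0 CPM with DMSO (SD, n = 3 each). CD59 thus fell to 0.226 of the DMSO level, a log2 fold change of -2.15 (SE 0.0356, adjusted p = 2.07e-41 in edgeR), which ranked 458 among the falls of the 12531 genes tested. C11orf91, which overlaps CD59 on the same strand, had 40 counts with tt-DDE and 20 with DMSO, against 12789 and 56596 counts of CD59. The SD of 0.735 CPM among the tt-DDE libraries was smaller than the 4.12 CPM that counting error alone gives at this depth, and it overstates their precision.

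CD46 had 172, 162 and 159 CPM with tt-DDE, against 276, 266 and 283 CPM with DMSO. The groups did not overlap. CD46 fell to 0.598 of the DMSO level, a log2 fold change of -0.74 (SE 0.0401, adjusted p = 1.66e-21). CD55 went the other way and had 123, 116 and 116 CPM with tt-DDE, against 65.3, 59.1 and 62.4 CPM with DMSO. The lowest tt-DDE library was above the highest DMSO library. The log2 fold change of CD55 was 0.93 (SE 0.0502, adjusted p = 1.68e-21).

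**Figure D2:**
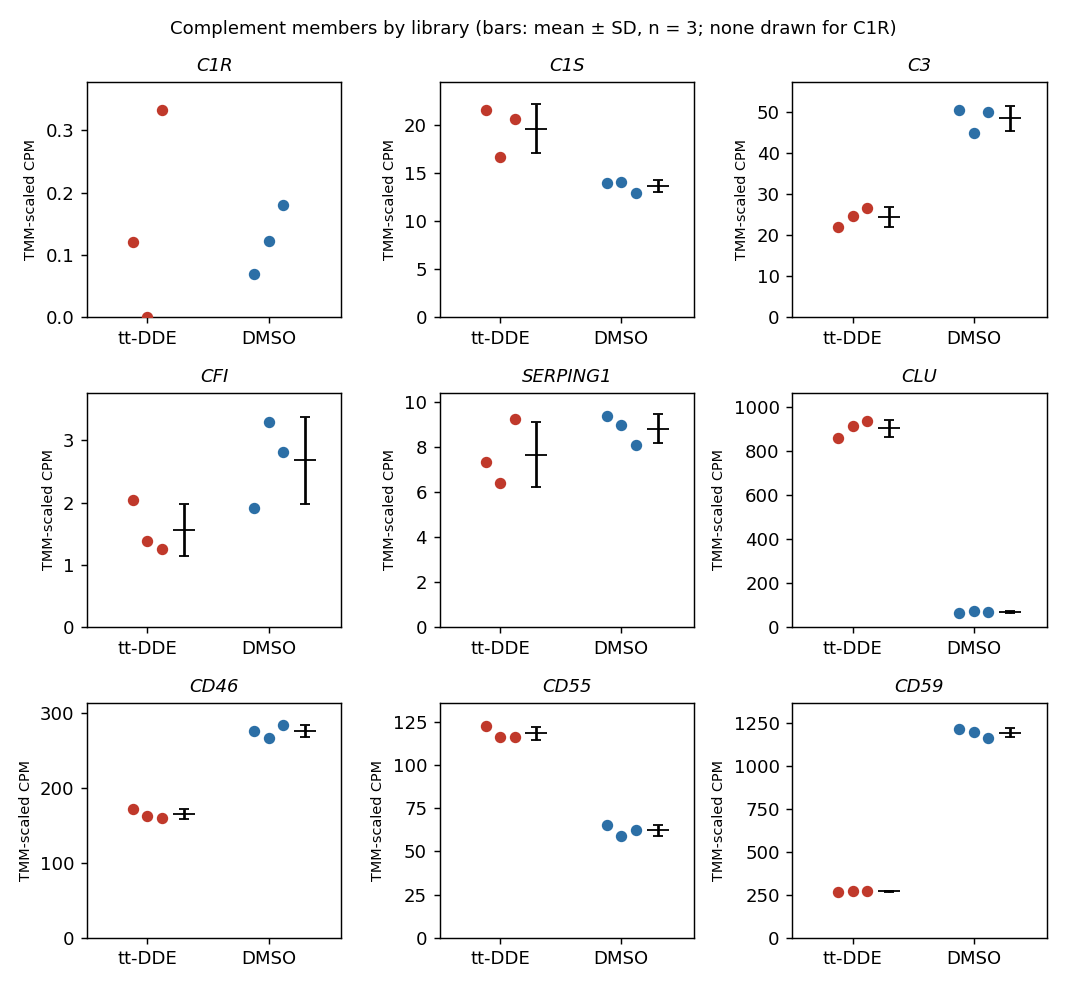
TMM-scaled CPM (y axis, from 0, its own scale in each panel) of the 9 complement genes in each library, tt-DDE in red on the left and DMSO in blue on the right, with mean ± SD (n = 3) beside the points except for C1R. The groups stay apart for C1S, C3, CLU, CD46, CD55 and CD59 and overlap for C1R, CFI and SERPING1.

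The opposed changes left the 3 membrane regulators at nearly equal levels per length. Their deposited FPKM, counts scaled by gene length and library total, are used for this. The equality rests on a single deposited length per gene, 8077 bases for CD59, 4880 for CD46 and 3383 for CD55. Whether these lengths match the transcripts present was not tested. By CPM, which is not scaled by length, CD59 (269) stayed above CD46 (165) and CD55 (118) with tt-DDE. In the tt-DDE libraries CD59 had 32.2, 32.2 and 32.2 FPKM, CD46 had 34.2, 32.1 and 31.6 FPKM and CD55 had 35.2, 33.1 and 33.3 FPKM. In the DMSO libraries CD59 had 154, 153 and 149 FPKM, CD46 had 58.1, 56.3 and 60.1 FPKM and CD55 had 19.9, 18.0 and 19.1 FPKM. DMSO cells thus had a clear order of CD59, CD46 and CD55, whereas with tt-DDE CD55 was highest in each library by a small margin and CD46 and CD59 changed places between libraries. The summed FPKM of the 3 genes was 98.7 ± 2.59 with tt-DDE and 229 ± 2.75 with DMSO (SD, n = 3 each), 0.431 of the DMSO sum (exact permutation test, two-sided, p = 0.1, the smallest that 3 against 3 libraries can give).

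As shares of that sum, CD59 made up 32.7% ± 0.839 with tt-DDE and 66.3% ± 1.01 with DMSO (SD, n = 3 each). CD55 made up 34.3% ± 0.325 with tt-DDE and 8.28% ± 0.321 with DMSO. CD46 made up 33.1% ± 0.572 with tt-DDE and 25.4% ± 0.835 with DMSO, so its share was higher although its own level fell. A ratio of 2 genes within a library does not depend on how libraries are scaled. The CD55 to CD59 ratio of FPKM was 1.09, 1.03 and 1.03 in the tt-DDE libraries, against 0.129, 0.118 and 0.128 in the DMSO libraries, a log2 difference of 3.07. The CD46 to CD59 ratio was 1.06, 0.996 and 0.980 with tt-DDE, against 0.377, 0.368 and 0.403 with DMSO, a log2 difference of 1.40. Of 6 pairs listed 5 could be computed. For 4 of them, including both of these, the groups did not overlap and the exact permutation p was 0.1 (two-sided, 0.125 adjusted over the 5 pairs), which cannot pass the threshold in this design.

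**Figure D3:**
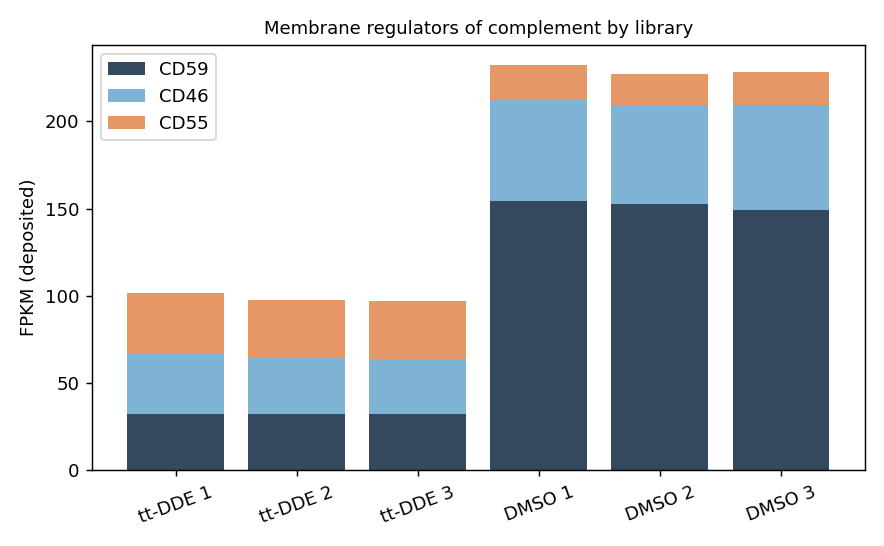
Deposited FPKM (y axis) of CD59, CD46 and CD55 stacked for each library (x axis), the tt-DDE libraries on the left and the DMSO libraries on the right. The stacks reach 97.1 to 102 FPKM with tt-DDE and 227 to 232 FPKM with DMSO, and the 3 segments are of nearly the same height only with tt-DDE.

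Among the soluble regulators, CLU encodes clusterin, an extracellular chaperone that also binds the forming membrane attack complex. It lay at chr8:27596917-27614700 on the minus strand. CLU had 859, 912 and 936 CPM with tt-DDE, against 66.1, 72.1 and 71.8 CPM with DMSO. Each tt-DDE library was far above every DMSO library. This was a log2 fold change of 3.69 (SE 0.0436, adjusted p = 3.01e-47 in edgeR), which ranked 158 among the rises of all genes tested. EPHX2, on the other strand, overlaps CLU in the table and had 167 counts with tt-DDE and 302 with DMSO, against 42846 and 3340 counts of CLU. Whether strand was used in counting is not given in the sources used here.

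CLU and CD59 both act on the membrane attack complex, and the order of their RNA levels turned round. The CLU to CD59 ratio of FPKM was 8.28, 8.74 and 8.98 in the tt-DDE libraries, against 0.141, 0.156 and 0.160 in the DMSO libraries, a log2 difference of 5.83 and a 57.0-fold change of the ratio (exact permutation test, two-sided, p = 0.1, or 0.125 adjusted over the 5 pairs).

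SERPING1 encodes the C1 inhibitor, a serpin that inactivates the proteases C1r and C1s. It lay at chr11:57597685-57614848 on the plus strand. SERPING1 had 7.33, 6.43 and 9.24 CPM with tt-DDE, against 9.41, 8.97 and 8.11 CPM with DMSO. The third tt-DDE library lay among the DMSO libraries. Its log2 fold change was -0.20 (SE 0.138, 95% interval -0.48 to 0.07, adjusted p = 0.163). Without tt-DDE library 3 it was -0.36 and passed (adjusted p = 0.0265), and with library size alone as the scaling it was -0.30 (adjusted p = 0.0452).

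CFI encodes factor I, the protease that degrades C3b and C4b with a cofactor such as CD46. It lay at chr4:109730982-109802040 on the minus strand and was scarce, with 19 to 34 counts per tt-DDE library and 28 to 54 per DMSO library. CFI had 2.04, 1.39 and 1.26 CPM with tt-DDE, against 1.92, 3.30 and 2.82 CPM with DMSO. The first tt-DDE library was above the first DMSO library, so the groups overlapped. CFI fell by a log2 fold change of -0.78 (SE 0.264, adjusted p = 0.00684). Without DMSO library 2 it was -0.61 and did not pass (adjusted p = 0.0617).

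C3, the central component whose cleavage starts opsonisation, lay at chr19:6677704-6720650 on the minus strand. It had 21.9, 24.5 and 26.7 CPM with tt-DDE, against 50.3, 44.8 and 49.9 CPM with DMSO, without overlap. C3 fell to 0.503 of the DMSO level, a log2 fold change of -0.99 (SE 0.0728, adjusted p = 9.49e-17). The log2 ratio of C3 to CFI in FPKM averaged 3.05 ± 0.51 with tt-DDE and 3.27 ± 0.47 with DMSO (SD, n = 3 each), and the difference of -0.22 was within the spread of the libraries (exact permutation test, two-sided, p = 0.7). Its sign turned without tt-DDE library 1 (0.07) or DMSO library 1 (0.03).

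C1R and C1S encode the paired proteases of the first component, which C1q activates, and lie 9.19 kb apart on chromosome 12. C1S, which cleaves C4 and C2, was at chr12:7060718-7071032 on the plus strand and had 21.5, 16.7 and 20.6 CPM with tt-DDE, against 13.9, 14.1 and 12.9 CPM with DMSO. The groups did not overlap. The log2 fold change was 0.52 (SE 0.102, adjusted p = 9.41e-06). C1R, which activates C1s, was at chr12:7080219-7092445 on the minus strand, with a further row on another scaffold that had no count. C1R had 2, 0 and 5 counts with tt-DDE, against 1, 2 and 3 counts with DMSO. These values sit around the counting floor of 3 counts, which is 0.175 to 0.193 CPM in the tt-DDE libraries and 0.187 to 0.212 CPM in the DMSO libraries. The ratio of summed C1R counts per total was 1.10 (exact 95% interval 0.315 to 3.94, for counting error only). A difference was not detectable at these counts.

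The counts of the pair were thus very unequal. There were 933 counts of C1S and 7 of C1R with tt-DDE, a ratio of 133 (exact 95% counting interval 64.4 to 332), and 649 and 6 with DMSO, a ratio of 108 (49.4 to 296). Per length, the counts of C1S exceeded those of C1R 119-fold with tt-DDE and 96.4-fold with DMSO. These intervals and the floor cover counting error only, since reads copied by PCR are not separate molecules. How reads that match both rows of C1R were counted is not given in the sources used here. Any effect of this on the C1R counts and these ratios was not tested. The SERPING1 to C1S ratio of FPKM, the inhibitor over its target, was 0.534, 0.603 and 0.702 with tt-DDE, against 1.06, 0.997 and 0.984 with DMSO. Every tt-DDE library was lower, by a log2 difference of -0.73 (exact permutation test, two-sided, p = 0.1).

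By FPKM, CLU led the 9 genes with tt-DDE at 279 ± 11.5, a level that 135 genes of the table reached. CD55, CD46 and CD59 followed at 33.9, 32.6 and 32.2 FPKM. The ranges over libraries overlapped between CD55 and CD46 and between CD46 and CD59, although CD55 was above CD46 within each library. C1S (6.49), C3 (4.50), SERPING1 (3.97), CFI (0.554) and C1R (0.0560) came next, with overlap between C3 and SERPING1. With DMSO, CD59 led at 152 ± 2.71 FPKM, a level reached by 277 genes, and CD46 (58.2), CLU (23.1), CD55 (19.0) and C3 (9.53) followed without overlap. SERPING1 (4.88) and C1S (4.81) overlapped in DMSO, above CFI (1.01) and C1R (0.0490). In both groups the place of C1R carries the limits given above, counts around the floor and reads that may match both of its rows. CLU made up 94.7% ± 0.518 of the summed FPKM of the 6 secreted members with tt-DDE and 53.2% ± 1.76 with DMSO (SD, n = 3 each). Without CLU that sum was 15.6 ± 1.64 FPKM with tt-DDE and 20.3 ± 0.377 FPKM with DMSO (exact permutation test, two-sided, p = 0.1).

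The rest of the pathway was represented by 52 further genes of its arms, of which 14 had no count in any library and 13 passed the filter. Among these 13, 4 were higher, 7 were lower and 2 did not pass, where 83.3% of all genes tested were called, 41.7% higher and 41.6% lower. Their median log2 fold change was -0.45, against 0.00134 over all genes tested. The filter asked for about 0.626 CPM in at least 3 libraries, and 6 of the 13 passed it through 1 group alone, so that a difference was built into their selection and these counts lend no support to a direction. With no filter, 38 of the 52 were tested and 9 were called higher, where 34.2% of 16493 genes were. In all, 17 were called, where 67.2% of those genes were. C2, CFB, C4A, C4B and CFD, which did not pass the filter, have several rows each. How reads that match several rows were counted is not given in the sources used here. Any effect on the low counts of these genes was not tested.

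Higher with tt-DDE were the receptors ITGAX and C5AR1, properdin (CFP) and the collectin COLEC12. ITGAX, the alpha chain of complement receptor 4, had 5.23, 4.66 and 6.58 CPM with tt-DDE, against 0.618, 0.427 and 0.300 CPM with DMSO (log2 fold change 3.61, SE 0.291, adjusted p = 2.13e-15). C5AR1, the receptor of the fragment C5a, had 3.01, 2.96 and 3.26 CPM with tt-DDE, against 0.275, 0.488 and 0.300 CPM with DMSO (log2 fold change 3.08, SE 0.339, adjusted p = 3.01e-11). Both, and CFP (1.95), passed the filter through the tt-DDE libraries alone. CFP stabilises the convertase of the alternative arm. COLEC12, a scavenger receptor with a collectin domain, had a log2 fold change of 0.79. ITGB2, the partner chain of ITGAX, had 1 count with tt-DDE and 0 with DMSO.

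Among those lower with tt-DDE were C5, C1QBP, MASP2, THBD, CSMD3 and SUSD4. C5, which starts the terminal arm, had 1.74, 0.945 and 1.79 CPM with tt-DDE, against 6.32, 6.04 and 6.85 CPM with DMSO (log2 fold change -2.10, SE 0.214, adjusted p = 3.33e-12). C1QBP, a mainly mitochondrial protein that can bind C1q, averaged 109 CPM with tt-DDE and 209.5 CPM with DMSO (log2 fold change -0.94). It overlaps RPAIN on the other strand, which averaged 45.7 CPM with tt-DDE and 29.4 CPM with DMSO. MASP2, a protease of the lectin arm, was at -1.09, but overlaps TARDBP on the other strand, which averaged 295 CPM with tt-DDE and 269 CPM with DMSO. THBD, thrombomodulin, was at -0.45 (adjusted p = 0.0416), and CSMD3 and SUSD4, membrane proteins with complement control domains, were at -3.09 and -1.46 and passed the filter through DMSO alone. VTN (-0.14) and C3AR1 (0.59) did not pass.

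**Figure D4:**
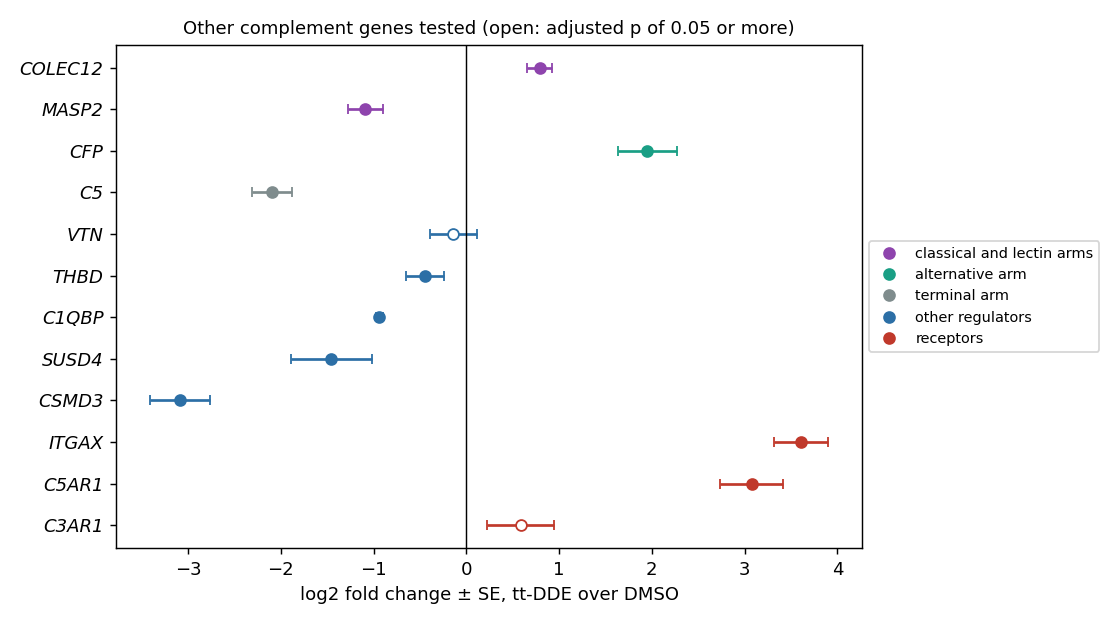
Fitted log2 fold change ± SE of tt-DDE over DMSO (x axis) for 12 of the 13 further complement genes tested (y axis), coloured by arm, with open points for the 2 genes that did not pass. The receptors ITGAX and C5AR1 lie highest, at 3.61 and 3.08, and CSMD3 lies lowest, at -3.09.

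Markers were read beside these results. Of all genes tested, 83.3% were called, 41.7% higher and 41.6% lower, so calls within a marker list are not particular to that list. Leukocyte markers summed to 99.5 to 116 CPM with tt-DDE and to 127 to 131 CPM with DMSO, almost all of it CD68, a lysosomal protein. The defining T cell marker CD3E had no count, PTPRC had 4 counts with tt-DDE and 6 with DMSO, and CD14 had 84 with tt-DDE and 2 with DMSO. Of the 6 leukocyte markers 2 were tested, with 1 higher and 1 lower. The higher one, CD14, passed the filter through the tt-DDE libraries alone, so its direction was built into its selection. Of 6 hepatocyte markers, the cell type that makes most plasma complement, 1 was tested and was lower, APOB was at 0, and the sum was 2.04 to 2.19 CPM with tt-DDE and 3.12 to 4.21 CPM with DMSO. Endothelial markers summed to 1.74 to 1.99 CPM with tt-DDE and 1.40 to 1.56 CPM with DMSO, with 1 of 4 tested and it did not pass. Fibroblast markers summed to 49.0 to 57.0 CPM with tt-DDE and 32.1 to 35.1 CPM with DMSO (1 higher and 1 lower of 2 tested, LUM at 0). Of 13 pigment epithelium markers 10 were tested, 3 were higher and 4 lower, with sums of 497 to 517 CPM with tt-DDE and 1238 to 1258 CPM with DMSO, mostly the keratins KRT8 and KRT18. RPE65, the retinoid isomerase that defines the mature tissue, had no count, which allows up to the floor given above, while OTX2 averaged 62.9 CPM with tt-DDE and 64.0 CPM with DMSO. BEST1, a chloride channel of this epithelium, was higher, at 21.6 CPM with tt-DDE and 0.506 CPM with DMSO. With 8 counts in each DMSO library, BEST1 passed the filter through the tt-DDE libraries alone. TYRP1, a pigment enzyme, was higher at 2.39 CPM with tt-DDE and 1.15 CPM with DMSO. In the other direction, PMEL averaged 2.32 CPM with tt-DDE and 4.26 CPM with DMSO. RLBP1 averaged 0.555 and 0.926 CPM in that order. It was scarce, with 5 to 12 counts per tt-DDE library and 7 to 21 per DMSO library, and its groups overlapped. The part of any of these in the complement results was not tested.

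The genes with the profiles closest to CLU and CD59 were sought among 10303 others of at least 5 CPM on average, by Euclidean distance of log2 CPM over the 6 libraries, centred on the DMSO mean. For CLU the closest was SMOX, spermine oxidase (distance 0.152, log2 fold change 3.79). For CD59 the 3 closest were LMNB2, lamin B2 (distance 0.0865, log2 fold change -2.14), GAS6, a ligand of the TAM receptors (0.103, -2.17), and HMGB2, a chromatin protein (0.105, -2.16). With 2 conditions, these distances mostly say that the genes had a change of like size.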

How the data were processed

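Each library has a column of whole-number counts and a column of FPKM in the deposited table, per the file headers. The submitters' processing notes name GRCh38.p13 as the build. Aligner, counter, annotation and strand setting: not given in the sources used here. All 91254 deposited FPKM above 0 could be rebuilt from count, length and library total (relative tolerance 1e-06), so the authors' FPKM carry no composition factor. Groups came from sample titles and columns from library names.

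Counts of the 22312 rows were summed by name to 19514 genes. After filterByExpr and TMM scaling, glmQLFit and glmQLFTest of edgeR 4.0.16 were run under R 4.3.3 (two-sided, with no covariate), and p-values were adjusted by Benjamini-Hochberg over 12531 genes, with a threshold of 0.05. SE is the log2 fold change divided by the square root of F. No library repeated another: within groups, chi-square over its degrees of freedom was 1.74 to 3.57. The fit was also run on simulated counts with a single fixed spread and few genes changed. Most genes tested were called in these data, so that run cannot vouch for the fit here. Genes named were the 9 members, the further complement genes past the threshold and the closest profiles. ITGB2, VTN and C3AR1, and the genes under other observations, were named after their values were seen. Some genes that this rule names are not reported here. Members, lists and motifs were chosen with earlier results of these data known. Alternatives were DESeq2 1.42.0, limma 3.58.1 on log2(FPKM + 1) and log2(FPKM + 0.1), library size alone, no filter, rows not summed, a replicate block and leaving out each library.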

Additional observations from a re-analysis of the deposited data

How the results depend on the processing

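The log2 fold changes of C1S, C3, CLU, CD46, CD55 and CD59 kept their direction and stayed past the threshold under all 13 alternatives, CLU between 3.54 and 3.72 and CD59 between -2.24 and -2.14. SERPING1 passed with library size alone (-0.30), with limma on log2(FPKM + 1) (-0.25) and with limma on log2(FPKM + 0.1) (-0.30), and was between -0.356 and -0.0935 when a library was left out. CFI was between -1.02 and -0.61 when a library was left out, and -0.37 with limma on log2(FPKM + 1), where it still passed. The log2 ratio of C3 to CFI was between -0.438 and 0.0661 when a library was left out, with 0.0336 without DMSO replicate 1. Without a filter 9 further complement genes were higher, where 34.2% of all genes were, against 4, since scarce genes were then tested. The number of genes higher was 4671 to 5637 over all alternatives and the number lower 4984 to 5689. With the replicate block, 5192 genes were higher and 5179 lower, no call of a member changed, and 6 further complement genes were lower, against 7. The deviations of libraries with the same number correlated at -0.01 to 0.02, and those with different numbers likewise at -0.01 to 0.02. No pairing by number was seen, though with 3 libraries per group this check could miss one. The cause of these shifts was not tested. Low counts limit C1R and, with 19 to 54 counts per library, CFI.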

Other observations

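Without the filter on low counts, 6 further complement genes passed in edgeR with Benjamini-Hochberg adjusted p-values, in a fit that called 67.2% of 16493 genes. C4BPB, a chain of the C4b-binding protein that restrains the classical arm, had 0 counts with tt-DDE and 32 with DMSO, at least 11.4-fold lower when the group sum at 0 is set to 3 counts. MASP1, a protease of the lectin arm, had 18 counts with tt-DDE and 0 with DMSO, at least 5.63-fold higher by the same rule. C2, a protease of the classical arm with 7 rows in the table, had 8 with tt-DDE and 0 with DMSO. How reads that match several rows were counted is not given in the sources used here, and any effect on C2 was not tested. C8G and C9, of the terminal arm, had 36 and 13 counts with tt-DDE, against 12 and 1 with DMSO. ITGAM, the alpha chain of complement receptor 3, had 31 counts with tt-DDE and 9 with DMSO.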
